A study of Mus musculus with 14 samples.

Results

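The genes described here are the nuclear-encoded subunits of the mitochondrial respiratory chain, taken by a pattern in their symbols. The pattern takes the Ndufa, Ndufb, Ndufc, Ndufs and Ndufv genes, Sdha to Sdhd, the Uqcr genes and the Cox4 to Cox8 genes, with the muscle isoform Cox6a2 left out. It finds 65 genes among the 33006 symbols of a table of sorted oligodendrocytes. Of these, 64 are also among the 16261 symbols that have a row in all 8 tables of single cells from the nucleus accumbens, a reward centre of the ventral striatum; the one not there is Cox8c. By the complex to which each subunit belongs, 35 are members of complex I, 4 of complex II, 8 of complex III and 18 of complex IV.

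All animals were male C57BL/6 mice injected intraperitoneally with morphine sulfate, or with saline as the mock treatment; the dose and the interval before dissection are not given in the sources used here. Drop-seq, in which single cells meet barcoded beads in droplets, was run on 4 mock and 4 morphine pools of accumbens tissue, each from 2 mice. In both groups the mice of pool 1 were 42 to 45 days old, those of pool 2 37 to 42 days, those of pool 3 78 to 82 days and those of pool 4 78 days. Oligodendrocytes, the cells that form myelin, were purified by fluorescence-activated sorting from whole brains of 70-day-old mice, 3 mock and 3 morphine, and sequenced in bulk. The antibody used for sorting is not given in the sources used here.

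Of 36000 deposited barcodes, 33216 were kept, with 6703052 to 24160207 UMIs per pool (a UMI, or unique molecular identifier, marks 1 captured transcript). Markers that are not respiratory chain genes placed 22233 of them (66.9%) in 18 classes, and a class name is used for all cells whose markers resemble that type. Reads in genes numbered 14989118 to 23456702 per sorted library. Of all reads tallied 69.5% to 74.3% were assigned to no gene, and 15.0% to 16.9% of those in genes were mitochondrial. The 10 oligodendrocyte markers together reached 56516 to 60688 CPM (counts scaled to a common library total) in these libraries, against 635 to 753 CPM for 10 astrocyte markers. A pair of library properties lies beside every result on the pools. The mitochondrial ribosomal RNA mt-Rnr2 stood at 18565 to 26156 CPM, unscaled, in mock and 33582 to 47585 in morphine pools. The pools numbered 1 were annotated with another gene set, with 6120 symbols found in no other pool.

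The respiratory chain carries electrons from NADH and succinate to oxygen through 4 complexes of the inner mitochondrial membrane, and the proton gradient it builds drives ATP synthase. Complex I (NADH dehydrogenase), complex III (cytochrome bc1) and complex IV (cytochrome c oxidase) combine subunits encoded in the mitochondrial genome with a larger number from the nucleus, whereas complex II (succinate dehydrogenase) is wholly nuclear. Most of these genes are expressed in every cell, but some subunits of complex IV exist as paired isoforms of which 1 is restricted to certain tissues. Ndufa4, long assigned to complex I, is counted here under complex IV, and Cox7a2l, a factor that joins complexes III and IV into supercomplexes, is counted there as well.

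Promoters are shown for 3 pairs of complex IV isoforms, 1 broadly expressed and 1 restricted, whose restricted member is described below, and for Ndufc2, the member with the smallest adjusted p after morphine in sorted cells. Each line gives the 200 bases from 250 to 51 bases before the RefSeq start site on build GRCm38.p6, 5′ to 3′ on the gene's strand, with CpG dinucleotides in capitals.
Cox6b1, broad, chr7:30626165-30626364, minus strand: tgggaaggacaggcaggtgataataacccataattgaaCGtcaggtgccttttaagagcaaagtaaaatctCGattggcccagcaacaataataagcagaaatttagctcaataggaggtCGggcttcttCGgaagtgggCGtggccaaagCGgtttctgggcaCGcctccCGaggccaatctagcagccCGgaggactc
Cox6b2, restricted, chr7:4753145-4753344, minus strand: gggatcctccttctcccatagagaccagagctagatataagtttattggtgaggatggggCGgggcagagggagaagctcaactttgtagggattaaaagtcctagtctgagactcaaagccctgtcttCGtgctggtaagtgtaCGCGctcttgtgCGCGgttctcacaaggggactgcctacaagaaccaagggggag
Cox7a2, broad, chr9:79759904-79760103, minus strand: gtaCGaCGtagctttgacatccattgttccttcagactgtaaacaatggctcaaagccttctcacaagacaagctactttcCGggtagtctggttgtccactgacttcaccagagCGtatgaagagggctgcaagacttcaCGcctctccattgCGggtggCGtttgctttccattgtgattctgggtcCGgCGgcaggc
Cox7a1, restricted, chr7:30183921-30184120, plus strand: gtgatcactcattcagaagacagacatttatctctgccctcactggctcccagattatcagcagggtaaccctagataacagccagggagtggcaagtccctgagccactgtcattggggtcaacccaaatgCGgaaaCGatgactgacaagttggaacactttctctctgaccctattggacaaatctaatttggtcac
Cox8a, broad, chr19:7217667-7217866, minus strand: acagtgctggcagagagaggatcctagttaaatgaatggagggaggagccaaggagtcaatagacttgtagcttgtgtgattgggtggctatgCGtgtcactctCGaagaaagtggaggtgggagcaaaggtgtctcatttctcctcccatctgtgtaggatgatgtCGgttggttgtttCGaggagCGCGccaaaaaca
Cox8b, restricted, chr7:140900497-140900696, minus strand: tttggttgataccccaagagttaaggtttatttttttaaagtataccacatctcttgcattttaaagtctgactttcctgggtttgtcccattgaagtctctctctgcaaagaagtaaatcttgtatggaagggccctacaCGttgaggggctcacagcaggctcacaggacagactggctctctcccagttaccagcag
Ndufc2, chr7:97399753-97399952, plus strand: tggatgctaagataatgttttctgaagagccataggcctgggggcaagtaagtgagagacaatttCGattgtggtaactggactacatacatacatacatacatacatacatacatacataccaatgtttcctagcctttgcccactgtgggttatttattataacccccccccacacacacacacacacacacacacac
The windows of Cox6b1 and Cox7a2 hold 9 CpG each and that of Cox8a 6. Their partners Cox6b2, Cox7a1 and Cox8b hold 6, 2 and 1, and Ndufc2 holds 1. The pair of Cox7b and Cox7b2, not printed, goes the other way, with 2 CpG in Cox7b and 5 in its restricted partner. Among the 53 members with a promoter in the RefSeq table the median was 9 CpG (range 1 to 22), against 4 over all 27025 genes, and 7 members held fewer than that.

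Letters that match the binding motifs of known activators of respiratory genes were searched on both strands of the 300 bases from 250 before to 50 after the start. The motif of nuclear respiratory factor 1 was present in 11 of the 53 promoters (20.75%) and in 5.188% of all promoters. CCGGAAG, the motif of the GABP factor, was also present in 11 (20.75%), against 9.928% of all. The motif of YY1 was found in 4 (7.547%, against 1.595%), TGACGTCA (the cAMP response element) in 4 (7.547%, against 2.031%) and AAGGTCA (estrogen-related receptors) in 4 (7.547%, against 5.38%). No motif here contains the letters of another. CCGGAAG occurred once in Cox6b1 and 2 times in Cox8a, while the windows of Cox7a2, Cox6b2, Cox7a1, Cox8b and Ndufc2 held none of the searched letters.

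In the accumbens, respiratory chain transcripts took the highest share of UMIs in interneurons marked by Pthlh and Pvalb, a class that includes fast-spiking cells, and the lowest in microglia and endothelial cells. The 64 genes together made up 3.71%, 2.67%, 3.45% and 3.04% of the UMIs of this interneuron class in mock pools 1 to 4 and 4.22%, 3.05%, 4.19% and 3.10% in morphine pools 1 to 4, a mean of 3.43% ± 0.57 (SD, n = 8 pools). In every pool this was the highest share of any class tested. Medium spiny neurons, which project out of the accumbens and outnumber its other neurons, followed with 2.63% ± 0.283 in the D2 and 2.57% ± 0.23 in the D1 class, and interneurons marked by Sst and Npy stood at 2.59% ± 0.345 (SD, n = 8 each). These 3 values differ by less than the spread between pools. Astrocytes reached 2.44% ± 0.317, oligodendrocytes 1.77% ± 0.212, endothelial cells 1.65% ± 0.271 and microglia 1.47% ± 0.285 (SD, n = 8 each). Complexes I and IV held most of these transcripts, 1.504% and 1.41% of UMIs in the Pthlh and Pvalb class, while complex II held 0.103%. Median depth differed between classes, with 3876 UMIs per cell in the Pthlh and Pvalb class, 4023 in D1 neurons, 1471 in astrocytes, 1250 in microglia, 1911 in oligodendrocytes and, the deepest, 5822 in excitatory neurons, whose share was 2.38%. The part of depth in the order of the classes was not tested.

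**Figure D1:**
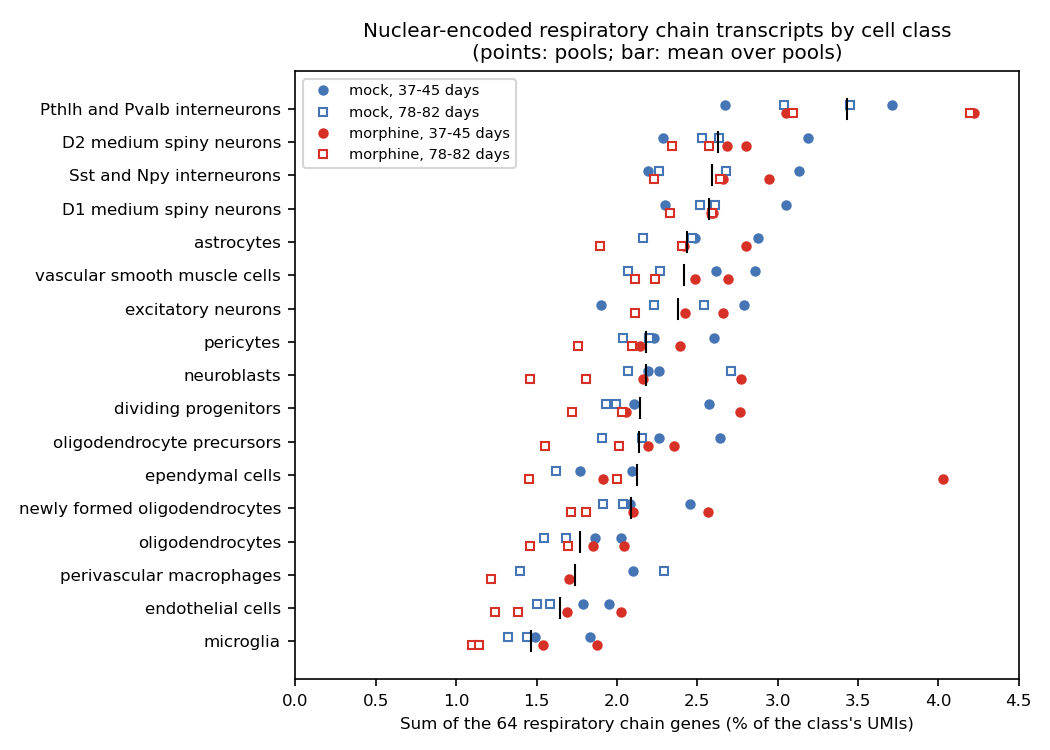
Share of each class's UMIs (%, horizontal axis) that fell in the 64 respiratory chain genes, by class. Each point is 1 pool, colour gives the treatment and filling the age, and the black bar is the mean over pools; the Pthlh and Pvalb interneurons lie farthest right, at 2.67% to 4.22%, and microglia farthest left, at 1.10% to 1.87%. The ependymal point at 4.03% is morphine pool 1, described with the ependymal values.

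To test each gene, UMIs were summed per pool and class, and each class was set against the mean of the other classes with edgeR's quasi-likelihood test, with the pool as a block and Benjamini-Hochberg adjustment over 10540 genes; a gene was called at an adjusted p under 0.05. Of the 64 members 61 passed the filter on low counts, and Cox7a1, Cox7b2 and Cox8b did not. Members were called higher far more often than genes in general in the Pthlh and Pvalb class, with 55 of 61 higher and 0 lower, where 29.7% of all genes tested were called higher. The median log2 difference was 0.61 for the members and 0.003 for all genes. All 8 members of complex III, 32 of 35 of complex I, 3 of 4 of complex II and 12 of 14 of complex IV were among the calls.

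Ndufa4 showed this most. It stood at 1615 CPM in the lowest pool, 1989 in the median and 3158 in the highest pool of the Pthlh and Pvalb class, against 1079, 1298 and 1687 CPM in D2 neurons, which came next. Only the extremes of these ranges overlapped. The log2 difference from the other classes was 1.41 (SE 0.0891, edgeR adjusted p = 2.26e-31). Ndufa11, a membrane-arm subunit of complex I, had 557 to 1028 CPM there (median 683) with a log2 difference of 1.27 (SE 0.0962, edgeR adjusted p = 6.63e-25). Cox5a, a nuclear subunit of cytochrome c oxidase, had 721 to 1302 CPM (median 910; log2 1.20, edgeR adjusted p = 8.05e-31), and Cox7b, another oxidase subunit, was higher by log2 1.13. Of all members 23 share a stretch of at least 100 bases, at 95% identity or more, with transcripts of another gene. This makes their counts uncertain, and whole copies were not told apart from shorter shared stretches. For 5 members such a gene was among the symbols kept for the accumbens pools. Named here among the 23 are Ndufs1 (3 such genes), Uqcrb (3), Cox7b (2), Ndufb2 (2), and Ndufs5, Ndufa12 and Ndufb11 (1 each), besides others named where they appear. Exons of Ndufa11 and Cox5a overlap a gene on the other strand (Vmac and Gm26631), and reads of these pairs could not be separated here.

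Medium spiny neurons also had more members called higher, from all complexes. In D1 neurons 48 of 61 members were called higher and 0 lower, where 39.3% of all genes were higher, and in D2 neurons 49 and 0, where 37.4% were. With RLE scaling in place of TMM the calls were 24 higher and 4 lower in D1 and 33 and 2 in D2, because the median of all genes moved from 0.07 to -0.14 and from 0.058 to -0.15. Relative to all genes the members' median stayed at log2 0.25 (0.24 with RLE) in D1 and 0.34 (0.33 with RLE) in D2. Ndufa1, an X-linked subunit needed to assemble complex I, had 473 to 704 CPM in D1 pools (median 608) and 459 to 778 in D2 pools (median 603). Its log2 differences from the other classes were 0.89 and 0.91 (SE 0.0938 and 0.094), and those of Ndufs3, a subunit of the complex I matrix arm, 0.84 and 0.97. Ndufs3 shares near-identical stretches with 2 other genes and overlaps exons of Kbtbd4 on the other strand, so its reads are uncertain. Interneurons marked by Sst and Npy had 36 members higher and 0 lower (26.4% of all genes higher). Excitatory neurons had 31 higher and 2 lower, Ndufa7 and Sdhc (37% of all genes higher and 21.7% lower). RLE scaling gave 15 and 8, and leaving out Ttr-rich barcodes of the ependymal class, described below, gave 9 and 10. Ependymal cells are part of the mean against which each other class is set. Counts of calls without these barcodes are given only for excitatory neurons, neuroblasts, vascular smooth muscle cells and ependymal cells. How far those of the other classes depend on them is not shown here.

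Astrocytes had the most members called higher of the 17 classes. There 58 of 61 were higher and 1 was lower, where 30.3% of all genes were higher and 26.7% lower, and the median was 0.42 for members and -0.05 for all genes. All 4 members of complex II and all 8 of complex III were higher. Ndufc2, a small subunit of the complex I membrane arm, had 756 to 1217 CPM in astrocytes (median 960; log2 1.03, SE 0.0818, edgeR adjusted p = 9.36e-24). Uqcrfs1, the Rieske iron-sulfur protein of complex III, had 335 to 495 CPM (median 409; log2 1.02, edgeR adjusted p = 9.92e-24), against 287 to 413 CPM in the Pthlh and Pvalb class, a range that overlaps. Ndufa12 was higher by log2 1.04, Sdhc, which anchors succinate dehydrogenase in the membrane, by 0.85 and Cox8a by 0.84. The 1 member lower in astrocytes was Cox7a2l (log2 -0.25, SE 0.0924, edgeR adjusted p = 0.0146).

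Microglia showed the opposite pattern. Of 61 members 54 were called lower and 1 higher, where 15.3% of all genes were lower and 22.9% higher, and the median was -0.54 for members and -0.04 for all genes. Ndufs5, an accessory complex I subunit, had 58.3 to 102 CPM in microglia (median 79.9), below every astrocyte pool at 160 to 369 CPM, and its log2 difference from the other classes was -0.97 (SE 0.129, edgeR adjusted p = 7.97e-11). Cox8a had 333 to 533 CPM in microglia and 1091 to 1443 CPM in astrocytes, again without overlap. The 1 member called higher in microglia was again Cox7a2l, at 214 to 337 CPM (median 247; log2 0.40, SE 0.103, edgeR adjusted p = 0.000662). In endothelial cells 38 members were lower and 3 higher (27.4% and 28.3% of all genes). The 3 were Ndufa7 with 442 to 645 CPM (log2 0.82, SE 0.0795), Cox7a2l with 261 to 359 CPM (log2 0.66, SE 0.09) and Uqcrb (log2 0.29). Cox7a2l and Ndufa7 each share a near-identical stretch with 1 gene elsewhere in the annotation, so their counts are uncertain.

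Progenitors and immature cells had more members called lower than higher. Neuroblasts had 25 members lower and 1 higher (11.5% of all genes lower, 18.3% higher), with Ndufs8, an iron-sulfur subunit of complex I, at log2 -0.78; the higher member was Cox7a2l at 0.33. Without the Ttr-rich barcodes 14 were lower and 1 higher. Dividing progenitors had 21 lower and 4 higher (22.3% and 23.1% of all genes), the 4 being Cox6b2, Ndufc2 (log2 0.64), Cox7c and Cox7a2. Oligodendrocyte precursors had 28 lower and 2 higher (14.6% and 20.1%), and newly formed oligodendrocytes 22 lower and 2 higher (18.6% and 17.1%). The medians of members and of all genes were -0.24 and 0.003 in neuroblasts and -0.22 and -0.11 in dividing progenitors. They were -0.23 and -0.01 in precursors but -0.17 and -0.15, hardly apart, in newly formed oligodendrocytes. Mature oligodendrocytes had 22 higher and 7 lower (33.1% and 28.3%), led by Ndufa3 at 581 to 967 CPM (median 767; log2 0.85, SE 0.0746), Ndufb11 (0.66) and Cox6a1 (0.59). Exons of Ndufa3 overlap Tfpt on the other strand. The 7 lower were Cox5a (log2 -0.55), Ndufa1, Ndufa4 (both -0.44), Ndufs3, Ndufa12, Cox7b and Uqcrb. These counts depend on scaling, and differences between classes of this lineage were not tested. As a share of UMIs, unscaled, the members took 2.14% in precursors, 2.09% in newly formed and 1.77% in mature oligodendrocytes. RLE gave 13 lower and 4 higher in precursors, 14 and 3 in newly formed cells, and 19 lower and 11 higher in mature oligodendrocytes, where the members' median turned from 0.12 to -0.05. Relative to all genes that median was 0.15 with TMM and 0.14 with RLE.

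The remaining classes were cells of the vessel wall, perivascular macrophages and ependymal cells. Pericytes, which wrap capillaries, had 12 members lower and 2 higher (3.77% and 9.03% of all genes), the 2 being Cox4i2 and Cox6b2; RLE gave 1 lower and 3 higher. Vascular smooth muscle cells had 11 higher and 5 lower (12.8% and 9.3%; 19 and 3 with RLE, and the same counts without the Ttr-rich barcodes), with Sdhc at log2 0.76 and Cox8a at 0.65. Perivascular macrophages, with at least 10 cells in only 5 pools, had 36 lower and 0 higher (7.28% and 6.2%), with a median of -0.70 for the members, but the median of all genes was also -0.45 there and RLE gave 5 lower. Ependymal cells, which line the ventricles, had 17 higher and 4 lower (24.5% and 18.3%), with a median of 0.07 for members and -0.04 for all genes. Without the Ttr-rich barcodes this turned to 4 higher and 22 lower, with medians of -0.21 and -0.06. Across the 17 classes the shift from TMM to RLE changed the members' median relative to all genes by at most 0.0209.

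**Figure D2:**
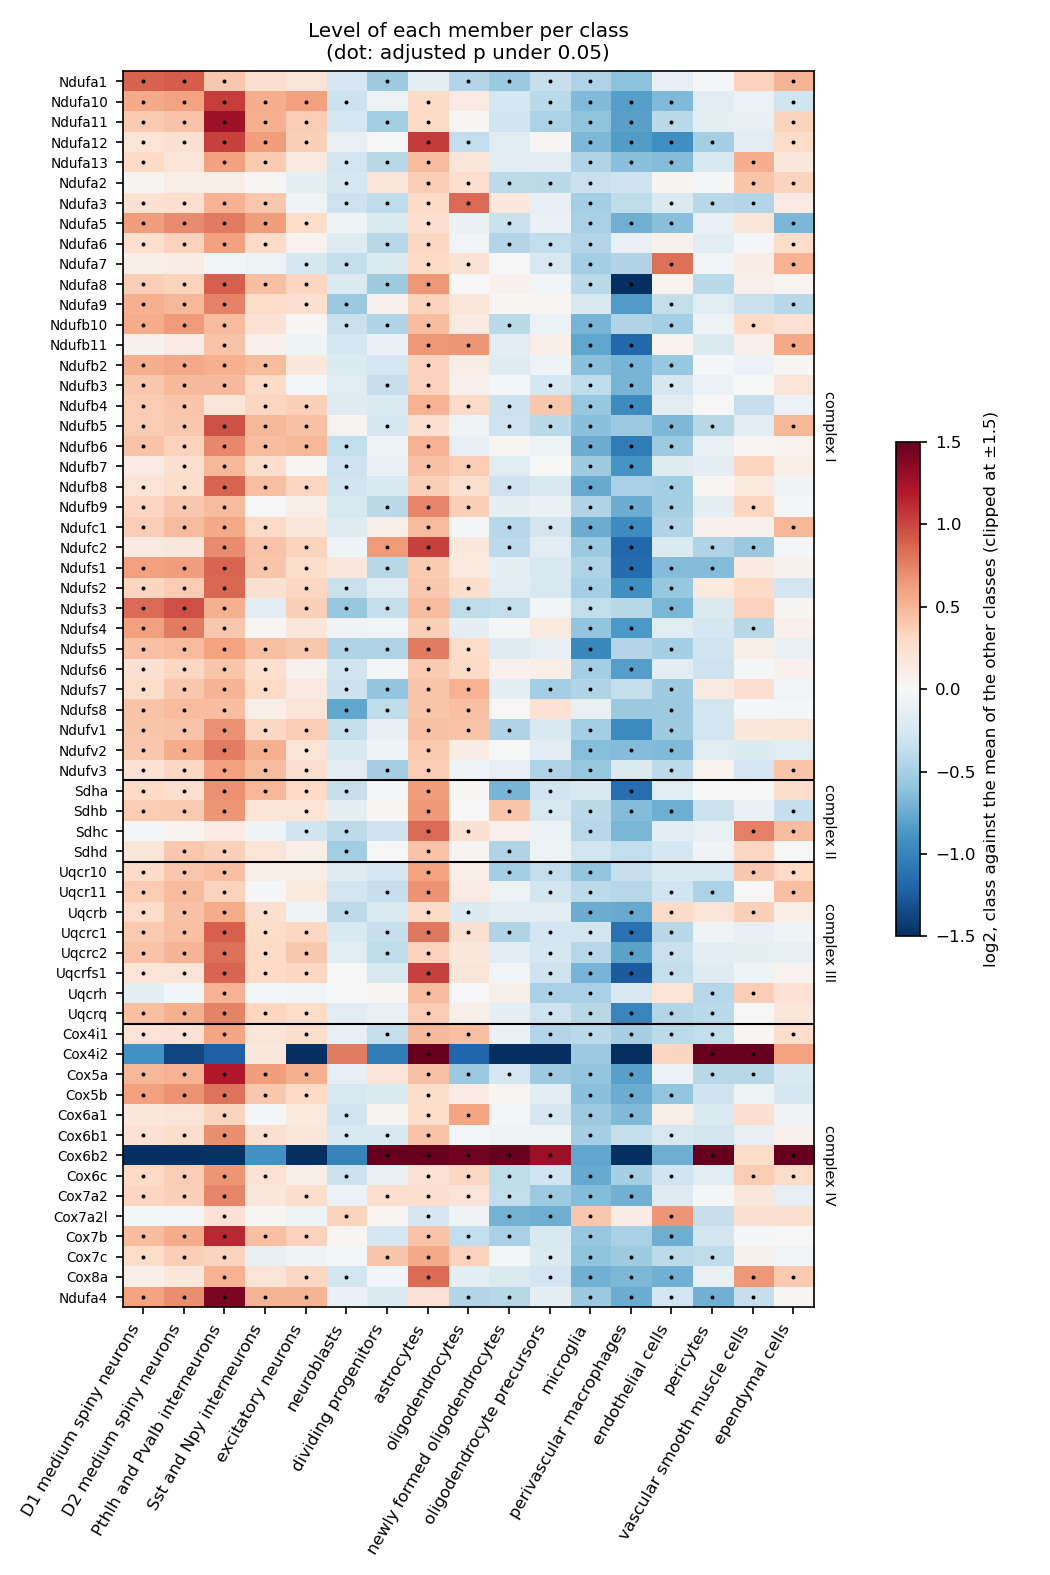
Log2 difference of each of the 61 members (rows, grouped by complex) in each class (columns) from the mean of the other classes, from red for higher to blue for lower and clipped at 1.5 either way. A dot marks an adjusted p under 0.05 in edgeR's quasi-likelihood test; the columns of the Pthlh and Pvalb interneurons and of astrocytes are red with few exceptions, that of microglia is blue except for Cox7a2l, and Cox4i2 and Cox6b2 differ from the other rows.

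Most members had a flat profile. The highest class mean was 1.65 times the median over classes in the median member, and the ratio was under 2 in 50 of 61. The 5 members of highest mean level, all in complex IV, were Cox4i1 (1110 CPM over the classes), Cox6c (980), Ndufa4 (910), Cox7c (853) and Cox8a (784). A UMI marks a transcript at its 3′ end, so these levels need no correction for length. Cox6c and Cox7c share near-identical stretches with other genes found in the accumbens data and are uncertain. So are Ndufb4 and Uqcr11, which share such stretches with 2 genes each elsewhere in the annotation. The highest mean of 32 members lay in the Pthlh and Pvalb class, of 14 in astrocytes, of 6 in D2 neurons and of 4 in oligodendrocytes. The lowest mean, on the same TMM-scaled levels, lay in perivascular macrophages for 41 members, in microglia for 10 and in endothelial cells for 3. Only Cox4i2 and Cox6b2 had a ratio of at least 3.

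Cox4i2 is the isoform of subunit 4 that is known for its expression in lung and its part in oxygen sensing (chr2:152754173-152765037, plus strand, GRCm38). In pericytes it gave 340, 634, 472 and 148 CPM (unscaled UMIs of the class, as for all isoform levels) in mock pools 1 to 4 and 157, 295, 439 and 274 in morphine pools 1 to 4, so that the groups overlapped. Summed over pools this was 185 UMIs, or 316 CPM (exact Poisson 95% interval 272 to 365). Cox4i2 made up 24.0% of the UMIs of Cox4i1 and Cox4i2 together in pericytes (exact binomial 95% interval 21.02% to 27.17%, and 11.3% to 40.3% over pools). In vascular smooth muscle cells the share was 7.27% (5.68% to 9.14%), with 30.6 to 179 CPM over pools, and in astrocytes 1.82% (1.51% to 2.17%). It was 0.0625% in D1 neurons, while oligodendrocyte precursors had 0 UMIs of Cox4i2 beside 1368 of Cox4i1, which allows a share of up to 0.219%. A UMI of Cox4i2 was found in 39.6% of pericytes and 0.353% of D1 neurons, although D1 cells were deeper (4023 against 1209 UMIs at the median), and in 3.66% of astrocytes. The fitted log2 difference in pericytes was 7.50 (SE 0.264, edgeR adjusted p = 1.6e-53), a value that depends on the prior count because several classes lie at or near 0. Exons of Cox4i1 overlap Emc8 on the other strand, so its UMIs are uncertain. All intervals cover counting error only.

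Ndufa4 and its paralog also went opposite ways in pericytes, though Ndufa4 was called lower in 7 classes in all. Pericytes had 229 to 720 CPM of Ndufa4 (median 515; log2 -0.72, SE 0.133, edgeR adjusted p = 4.63e-06). Ndufa4l2, which lies outside the symbol pattern and encodes a paralog induced under low oxygen, stood at 392, 719, 917 and 219 CPM in mock pools 1 to 4 of the same class and 281, 404, 725 and 269 CPM in morphine pools. Its fitted log2 difference was 8.21 in pericytes and 6.78 in vascular smooth muscle cells (edgeR adjusted p = 3.46e-72 and 7.98e-53), with the same dependence on the prior count.

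Cox6b2, an isoform of subunit 6b known from testis (chr7:4751792-4753094, minus strand), was low but present in several glial classes, progenitors and pericytes. In astrocytes it gave 29.2, 35.4, 17.6 and 25.3 CPM in mock pools 1 to 4 and 23.1, 30.6, 33.8 and 28.1 in morphine pools, an overlap of the groups. Its share of the UMIs of Cox6b1 and Cox6b2 was 3.69% in astrocytes (exact binomial 95% interval 3.14% to 4.30%), 4.28% in dividing progenitors (2.92% to 6.01%), 3.83% in newly formed oligodendrocytes (2.56% to 5.49%) and 1.96% in oligodendrocytes (1.58% to 2.41%). In pericytes it was 3.74% (2.15% to 6.00%), in microglia 0.613% (0.199% to 1.42%) and in D1 neurons 0.101% (0.0567% to 0.167%). Ependymal cells had the highest share, 10.1% (8.442% to 12.01%), and 8.22% (6.253% to 10.57%) without the Ttr-rich barcodes described next.

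The ependymal class held 29 barcodes of 371 in which Ttr, the transthyretin gene of choroid plexus epithelium, took over 1% of UMIs, 25 of them in morphine pool 1 and 4 in morphine pool 3. The ependymal marker Ccdc153 had 0 UMIs in them. Respiratory chain genes made up 4.73% of their UMIs in pool 1 and 3.90% in pool 3, against 2.18% and 1.73% in the other ependymal barcodes of the same pools. They held 59 of the 60 ependymal UMIs of Cox8b, the isoform of subunit 8 known from heart and skeletal muscle (chr7:140898945-140900446, minus strand). Results of the ependymal class itself are given with and without them where both were computed.

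Outside those barcodes Cox8b was found mainly in the Pthlh and Pvalb interneurons. All 8 pools of this class held it, with 50.84, 10.52, 8.81 and 20.5 CPM in mock pools 1 to 4 and 16.9, 9.52, 64.4 and 18.7 in morphine pools, and the groups overlapped. In all this was 63 UMIs beside 3362 of Cox8a, a share of 1.84% (exact binomial 95% interval 1.42% to 2.35%). The share was 0.0348% in D1 neurons (0.0113% to 0.0811%) and 0.192% in astrocytes, and 11 classes held no UMI of Cox8b; excitatory neurons, with 11192 UMIs of Cox8a, allow a share of up to 0.0268%. A UMI of Cox8b was present in 6.08% of the cells of the Pthlh and Pvalb class and in 0.0756% of D1 neurons of similar depth. Cox7b2, the restricted partner of Cox7b, gave 62 UMIs in D1 neurons (0.421% of both), 29 in D2 neurons and 22 in astrocytes (0.623%). Cox7a1, the partner of Cox7a2 in heart and muscle, reached 3.70% of both in ependymal cells (2.53% to 5.22%; 2.69%, with an interval of 1.40% to 4.65%, without the Ttr-rich barcodes), 2.09% in vascular smooth muscle cells (1.08% to 3.62%) and 1.37% in astrocytes (1.00% to 1.83%). Cox8c, not a row of every accumbens table, is not given here.

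**Figure D3:**
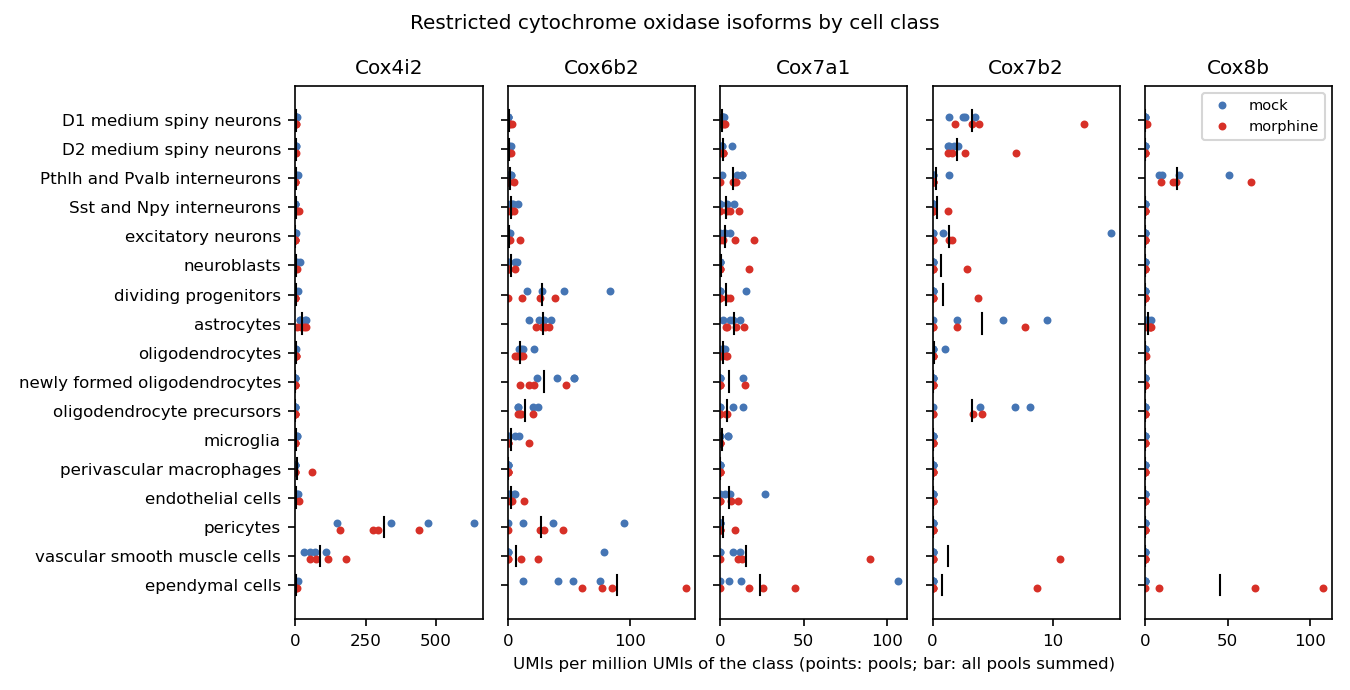
Unscaled CPM of the class for the 5 restricted isoforms of complex IV (panels, each with its own horizontal scale) in 17 classes. Each point is 1 pool, coloured by treatment, and the black bar is the value with all pools summed; Cox4i2 stands at 316 in pericytes, Cox8b at 19.2 in the Pthlh and Pvalb interneurons, and the ependymal values of Cox8b come from Ttr-rich barcodes of morphine pools 1 and 3 but for 1 UMI.

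The question in the sorted oligodendrocytes was which transcripts morphine alters in this cell type. Few respiratory chain genes passed the test. Of the 61 members that passed the filter on low counts, 2 were called higher and 0 lower by edgeR's quasi-likelihood test (adjusted over 15759 genes), where 8.09% of all genes were called higher and 6.68% lower. The share of members called was below that background. In all, 41 of 61 had a log2 difference above 0, and the median was 0.09 for members and -0.02 for all genes. For 53 members the 95% interval of the difference lay within 0.5 on the log2 scale, and for 60 within 1. In bulk RNA fewer cells of a kind and less RNA per cell cannot be told apart.

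Ndufc2 (chr7:97400003-97407802, plus strand, GRCm38) had 31.5, 23.0 and 29.8 CPM in the mock and 37.6, 40.1 and 35.4 CPM in the morphine libraries. Every morphine library lay above every mock library. The rise was log2 0.41 (SE 0.0966, 95% interval 0.21 to 0.62, edgeR adjusted p = 0.00418), and it was called in every alternative run, also with each library left out. The authors' deposited table lists it at log2 0.43 with an adjusted p of 0.00522. Ndufs1, the largest subunit of complex I (chr1:63143596-63176833, minus strand), had 16.8, 18.8 and 18.6 CPM in mock and 22.0, 20.2 and 24.3 CPM in morphine libraries, again without overlap. Its rise was log2 0.30 (SE 0.0951, edgeR adjusted p = 0.0365), but the call was lost when mock replicate 1, mock replicate 3, morphine replicate 1 or morphine replicate 3 was left out (adjusted p = 0.144, 0.0505, 0.0862 and 0.233) and with DESeq2 (0.0633). The authors' deposited table gives Ndufs1 log2 0.32 with an adjusted p of 0.0623. Its exons overlap Eef1b2 and Ino80dos on the other strand, and it shares near-identical stretches with 3 genes, as given above. No source used here states whether reads were counted by strand.

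Other members of complexes I to III had differences above 0 that did not pass the test. Ndufv2, which binds an iron-sulfur cluster in complex I, had 31.4, 26.5 and 29.8 CPM in mock and 35.0, 34.6 and 33.4 CPM in morphine libraries (log2 0.23, edgeR adjusted p = 0.0653). Sdha, the flavoprotein of succinate dehydrogenase, had 85.8, 84.7 and 90.6 against 94.5, 97.8 and 98.1 CPM (log2 0.15, edgeR adjusted p = 0.1). Neither pair of groups overlapped. In all 10 members had groups that did not overlap, each with the higher values in morphine, or 16.4% of the 61, where 29.1% of all genes did not overlap. The others were Ndufa10, Ndufs7, Ndufb11, Sdhd, Uqcrc2 and Uqcrq. The lowest differences were those of Ndufa1, with 8.89, 6.69 and 9.89 CPM in mock and 7.42, 6.63 and 5.99 CPM in morphine libraries (log2 -0.36, edgeR adjusted p = 0.136), and of Ndufb2 (log2 -0.22, edgeR adjusted p = 0.103), both with overlapping groups. Above 0 lay 25 of 35 members of complex I, 3 of 4 of complex II, 6 of 8 of complex III and 7 of 14 of complex IV, with medians of 0.09, 0.17, 0.11 and -0.01.

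Per kilobase of exon, Cox6a1 had the highest level in the mock libraries, 151 ± 12.1 CPM per kb (SD, n = 3), followed by Cox6b1 at 68.2, Ndufa2 at 60.1 and Cox8a at 57.7, and Cox5a the lowest of those that passed at 1.44; the median was 13.6. Ndufc2 stood at 37.3 and Ndufs1 at 2.24 CPM per kb. The restricted isoforms Cox4i2, Cox7b2, Cox8b and Cox8c did not pass the filter, with at most 15 reads in any library. Members together took 0.139% to 0.176% of the reads in genes. Endothelial markers, 10 of 10 with reads, summed to between 67.5 and 71.8 CPM in the mock libraries, and the morphine libraries had sums between 41.8 and 54.6 CPM. Markers of newly formed oligodendrocytes summed to between 204 and 248 CPM in mock and 267 and 295 CPM in morphine libraries, again without overlap. In all 7 of 18 marker lists did not overlap between the groups. Higher in morphine were also oligodendrocyte markers (56516 to 59401 against 59717 to 60688 CPM) and those of their precursors (24.3 to 24.6 against 25.2 to 28.5 CPM). Lower in morphine were also those of microglia (58.6 to 69.7 against 58.06 to 58.4 CPM), Sst and Npy interneurons (12.5 to 17.0 against 7.81 to 11.3 CPM) and excitatory neurons (9.41 to 14.3 against 8.25 to 8.40 CPM). The part of other cells in the differences of the members was not tested.

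Lists of related genes in the sorted cells are to be read against the same background, 8.09% of all genes called higher and 6.68% lower. None of the 7 mitochondrially encoded subunits tested and none of the 15 ATP synthase genes was called, with medians of log2 -0.04 and 0.05. At an unadjusted p under 0.05, 11 of the 61 members passed, 9 higher and 2 lower, beside 3875 of 15759 genes. Of 38 assembly factors 2 rose, Uqcc1, which serves complex III (17.4 ± 0.879 to 22.4 ± 0.522 CPM, SD, n = 3), and Cox10, which makes the heme of complex IV (8.88 ± 0.0479 to 11.4 ± 0.293 CPM). Bcs1l, which inserts the Rieske protein, went from 5.37 to 3.84 CPM without passing (edgeR adjusted p = 0.054). Of 15 regulators 2 rose, the nuclear receptor Esrra from 1.45 ± 0.399 to 3.43 ± 0.203 CPM (log2 1.21, edgeR adjusted p = 0.00151) and the coactivator Pprc1 (log2 0.40, edgeR adjusted p = 0.0198), while Ppargc1a had log2 -0.28 (edgeR adjusted p = 0.19). Among the chain genes outside the symbol pattern Gpd2, the glycerol-3-phosphate dehydrogenase that feeds electrons to the quinone pool, fell from 64.1 ± 7.4 to 45.8 ± 1.44 CPM (log2 -0.49, SE 0.078, edgeR adjusted p = 8.73e-05), with no overlap of the groups.

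In the accumbens edgeR called no member after morphine, in any of 16 classes or in all cells together, where the share of all genes called was 0% in all cells and, in the classes, 0.0802% in oligodendrocytes, 0.0332% in dividing progenitors, 0.0251% in astrocytes and 0% in the others. DESeq2 also called 0 members. In all cells, 49 of 64 had a log2 difference above 0, with a median of 0.05, and 1 had an unadjusted p under 0.05, Cox8b. It had 0.978, 0.387, 0.539 and 0.948 CPM in mock and 8.73, 0.716, 3.58 and 0.946 CPM in morphine pools 1 to 4. The Ttr-rich barcodes held 46 UMIs of Cox8b in morphine pool 1 and 13 in morphine pool 3. Their part in this difference was not tested. The members' share of UMIs overlapped between the groups, with 2.76%, 2.19%, 2.45% and 2.30% in mock and 2.75%, 2.45%, 2.34% and 2.07% in morphine pools 1 to 4. The median 95% half-width was 0.30 in D1, 0.31 in D2 neurons and 0.35 in oligodendrocytes on the log2 scale.

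The members with the smallest p in the largest classes lay in oligodendrocytes and astrocytes. Ndufb11, a complex I subunit of the membrane arm, had 260, 288, 283 and 270 CPM in mock and 415, 320, 375 and 251 CPM in morphine pools of oligodendrocytes (log2 0.30, SE 0.167, edgeR adjusted p = 0.999). Morphine pools 1 to 3 were above every mock pool and morphine pool 4 below all of them. Ndufs8 in oligodendrocytes (log2 0.29) and Cox7a2l in astrocytes (log2 -0.33) came next, both with overlapping groups. The 2 genes called in sorted oligodendrocytes differed in sign in the accumbens class: Ndufc2 had 353, 393, 415 and 319 CPM in mock and 511, 415, 450 and 298 CPM in morphine pools (log2 0.17, 95% interval -0.20 to 0.54), and Ndufs1 log2 -0.15 (95% interval -0.50 to 0.19). Both intervals include 0, and that of Ndufc2 includes the 0.41 of the sorted cells, while that of Ndufs1 does not include its 0.30.

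In single classes no member passed the test, and differences between classes were not tested. In the Pthlh and Pvalb class 56 of 59 members were above 0 (median 0.20, 0 with an unadjusted p under 0.05). Ndufa4 there had 2249, 1574, 1751 and 1871 CPM in mock and 3361, 1615, 2916 and 2063 CPM in morphine pools (log2 0.42, SE 0.208, edgeR adjusted p = 1), the groups overlapping. All 16 ATP synthase genes tested in this class were above 0 too (median 0.25), whereas 1 of 7 mitochondrially encoded subunits was. Medians were 0.004 in D1 and 0.018 in D2 neurons, -0.01 in astrocytes and -0.14 in microglia. In ependymal cells 58 of 60 members were above 0 with a median of 0.56; without the Ttr-rich barcodes it was 32 of 59 and 0.02.

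Age was the other variable the pools allowed to be compared, with pools 1 and 2 of each group (37 to 45 days) against pools 3 and 4 (78 to 82 days) and treatment as a covariate. No member was called in all cells (0% of all genes called) or in a class, where 0% to 1.31% of all genes were called. In all cells 48 of 64 members were lower in the older pools, with a median of -0.10 against 0.01 for all genes; 4 had an unadjusted p under 0.05, beside 1637 of 15469 genes (9 members with DESeq2, which called 0). Without both pools numbered 1, which carry the other annotation, 35 of 64 were above 0 and the median was 0.02. In all cells the lower median in older pools was thus not seen without them, a fit with only pool 2 of each group as younger. Which property of the pools numbered 1 lies behind this was not tested.

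Sdhd, the other membrane anchor of succinate dehydrogenase, went against the rest (chr9:50596357-50603812, minus strand). It had 105, 94.8, 101 and 114 CPM in the younger pools (mock 1 and 2, morphine 1 and 2) and 129, 152, 122 and 149 CPM in the older ones (mock 3 and 4, morphine 3 and 4). The groups did not overlap, and the difference was log2 0.42 (SE 0.119, edgeR adjusted p = 0.469), or 0.40 without both pools numbered 1. It was above 0 in 13 of the 15 classes tested, and in D1 neurons, with 100.5, 96.8, 80.6 and 112 against 130, 167, 135 and 163 CPM, it was log2 0.60 (edgeR adjusted p = 0.296). Of the other members with the smallest p, Ndufb4, an accessory subunit of complex I, had log2 -0.42 in all cells (-0.16 without both pools numbered 1), Ndufb7 -0.25 (-0.19), Cox6b2 -0.86 (-0.24), Cox7a1 -0.75 (-0.53) and Cox4i2 -1.03 (-1.02). Within pericytes, which held 43.3% of the Cox4i2 UMIs found in the classes, the difference of Cox4i2 was -0.17.

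Among the classes, medians below -0.15 were found in vascular, immune, glial and progenitor classes, and medians nearer 0 in the mature neuron classes. In endothelial cells 55 of 59 members were below 0 with a median of -0.31, in microglia 52 of 59 with -0.31, in oligodendrocyte precursors 54 of 59 with -0.34 and in astrocytes 55 of 61 with -0.22. In D1 neurons the median was -0.005. Without both pools numbered 1 these medians were -0.22 in endothelial cells, -0.17 in microglia, -0.22 in precursors, -0.12 in astrocytes and 0.07 in D1 neurons, and in the Pthlh and Pvalb class the median moved from 0.05 to 0.28, with 57 of 60 members above 0. The difference between classes was not tested. Uqcr11, a small subunit of complex III, had 458, 368, 424 and 345 CPM in younger and 302, 217, 227 and 241 CPM in older pools of endothelial cells (log2 -0.68, SE 0.183, edgeR adjusted p = 0.111). Ndufb4 had 253, 137, 262 and 129 CPM in younger and 111, 93.1, 91.7 and 49.7 CPM in older pools of microglia (log2 -1.13, SE 0.305, edgeR adjusted p = 0.0726). Neither pair of groups overlapped, and in both genes pools numbered 1 were the highest. In ependymal cells 61 of 61 members were below 0 (median -0.72), and 54 of 60 without the Ttr-rich barcodes (-0.33).

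Cox5b, Cox6c, Cox7c, Ndufa7, Ndufb2, Ndufb4, Ndufb6, Ndufb7, Ndufv2 and Uqcr11 were below 0 in the older pools of all 16 classes, which share their pools and are not independent. Without both pools numbered 1 this held for Ndufb4 alone of these 10, while the other 9 were below 0 in 11 to 15 of the 16 classes. Of the mitochondrially encoded subunits 7 of 8 were below 0 in the older pools over all cells, with a median of -0.25, and 7 of 7 in endothelial cells and in microglia, whereas 8 of 16 ATP synthase genes were above 0 in all cells.

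**Figure D4:**
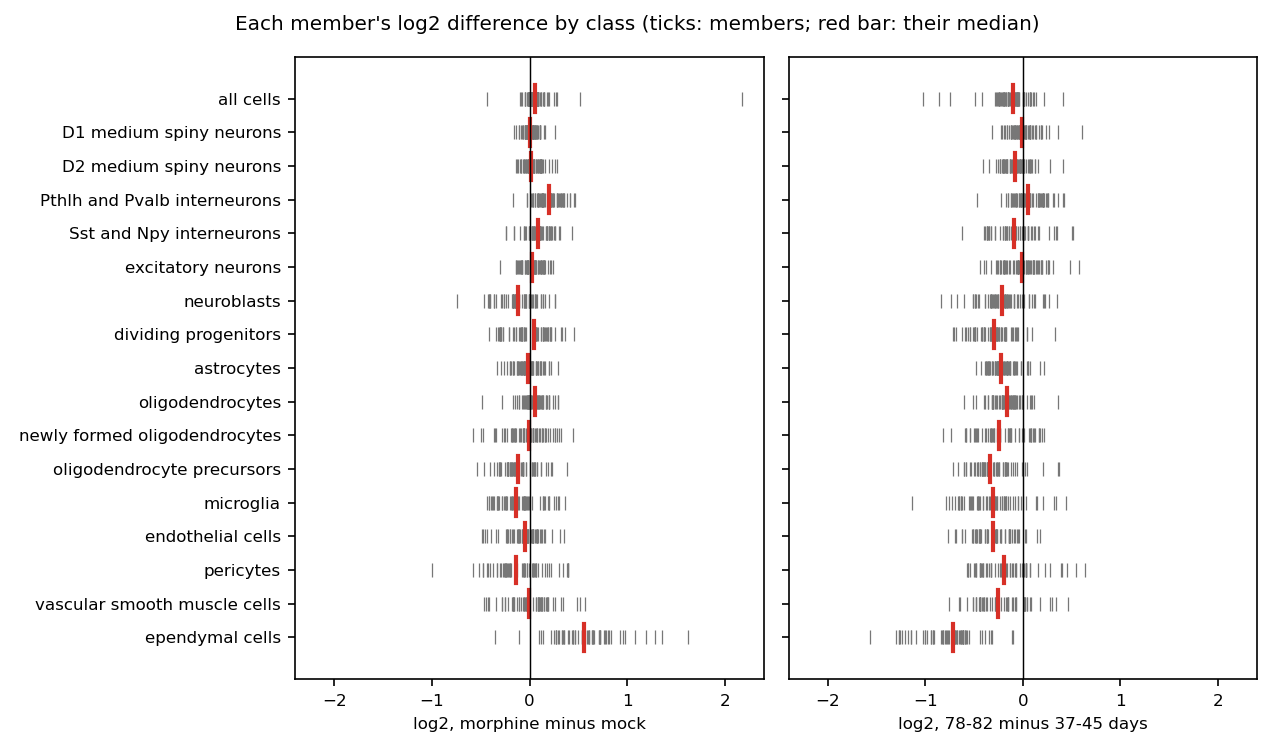
Log2 difference of each member tested (grey ticks) between morphine and mock pools (left) and between older and younger pools (right), in all cells and in 16 classes; the red bar is the members' median. Medians after morphine include 0.20 in the Pthlh and Pvalb class, -0.14 in microglia and in pericytes and 0.56 in ependymal cells (0.02 without Ttr-rich barcodes), and medians with age lie below 0 in most glial and vascular classes. No member passed the test in either panel.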

How the data were processed

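The deposited counts of the sorted libraries are raw reads per gene, and those of the 8 accumbens tables are UMI counts per gene and barcode, written by Drop-seq's DigitalExpression per the file headers. The submitters' processing notes name STAR 2.4.2a, Trimmomatic 0.36, HTSeq, DESeq, DESeq2 and mm10, without roles. The authors' deposited comparison of the sorted libraries gives log2 fold changes and adjusted p-values, and only values named as theirs come from it. Strandedness is not given in the sources used here. Each column of the tables was mapped to a sample or group, and 0 columns of per-sample values were left unused.

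A barcode was kept if it had 300 or more genes and no more than 20% of its UMIs were mitochondrial. Cells were placed in classes by marker scores. No doublet caller was run, and 2961 barcodes (8.91% of those kept) high in markers of 2 unrelated classes were left unassigned. Of all barcode sequences kept, 40 occurred in more than 1 pool, at most 8 in a pair. UMIs were summed per pool and class (at least 10 cells). edgeR 4.0.16 (R 4.3.3) was used with TMM scaling, its filter on low counts and quasi-likelihood tests, two-sided, with Benjamini-Hochberg adjustment over all genes tested; CPM are TMM-scaled, except isoform levels and mt-Rnr2, and percentages of UMIs are not scaled. On simulated data the sorted fit recovered 55.4% of log2 changes of 0.5 and 80.6% of changes of 1. The morphine fits of all accumbens cells, oligodendrocytes, D1 neurons and astrocytes recovered 1.83% to 6.36% and 35.7% to 61.6%. The class fit, simulated for astrocytes, recovered 77.4% and 98.9%. The comparison by age was not simulated. Intervals are at 95% and a count of 0 allows 3 counts. The labels do not say whether the sorted libraries of a group came from separate mice, so p-values measure the spread between these samples. Coordinates, lengths and overlaps are from GENCODE on GRCm38, near-identical stretches (BLAST 2.17.0) from its transcripts, and promoters from RefSeq.

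Same-numbered pools did not deviate together in every pair (correlations 0.43, -0.09, -0.06 and 0.68), so the numbers were not taken to pair them. Named were members called in sorted cells, those with the highest class mean at least 3 times the median over classes, the 5 of highest level, those of smallest p for morphine and age, isoform pairs, and up to 3 genes per related list; other members, such as those that lead a class or go against its majority, were chosen after their values were seen. Leaving out the Ttr-rich barcodes, or both pools numbered 1, was chosen after seeing the data. The members and lists were chosen with earlier results of these data known.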

Additional observations from a re-analysis of the deposited data

Results flagged for a closer look

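In 1 of 49 groups of 4 pools tested, 1 pool lay far from the others. The share of UMIs in respiratory chain genes was 2.33% in the lowest morphine pool of D1 neurons, against 2.58% in the next and 2.60% in the highest pool of that group. The gap to the next pool was 0.948 of the range. Chance flags about 1 in 20 such groups.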

How the results depend on the processing

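In sorted oligodendrocytes the 2 members called higher were the same with RLE scaling, with library sizes that leave out mitochondrially encoded genes and without a filter on low counts. DESeq2 called 1, Ndufc2. Leaving out 1 library gave 1 to 3 called higher and 0 to 3 called lower; the 3 lower, Cox6b1, Ndufa1 and Ndufb2, were called without mock replicate 2. In the accumbens, without a filter on low counts, 3 members were called higher after morphine (Cox8b, Ndufa1 and Ndufa11, all in ependymal cells), and with age 1 was called higher (Sdhd in D1 neurons) and 2 lower (Cox6a1 and Ndufa4 in ependymal cells). These ependymal fits include the Ttr-rich barcodes. Leaving out 1 pool gave 0 to 5 members called lower with age: Ndufb4 in microglia without mock replicate 2, and 5 in ependymal cells without morphine replicate 2. Summed over the 17 classes, 342 member calls were higher and 255 lower, against 276 and 139 with mock pools only, 287 and 228 with RLE scaling, and 296 to 360 and 194 to 256 with 1 pool left out. The cause of these changes was not tested. With the replicate number as a block, 0 members were called after morphine in all accumbens cells (50 of 64 above 0, median 0.05) and 0 in the classes. In the sorted libraries the replicate block called 2 higher, Ndufc2 and Ndufs1, and 0 lower, so no call changed; same-numbered libraries did not deviate together (correlations 0.017, -0.13 and -0.03), and not every sample correlated best with its own number. Intervals after morphine were widest in 2 of the small classes. The median 95% half-width was 0.69 in pericytes and 0.93 in ependymal cells, Ttr-rich barcodes included, on the log2 scale. The part of depth in these widths was not tested.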
